A study of Mus musculus with 119 samples.

Results

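The genes described are Bdnf, Ntrk2, Ntrk3, Vgf, Nptx2 and Homer1, a set of neurotrophin signaling genes and activity-dependent late response genes. Their rows were taken by symbol from both deposited gene count tables, which makes 6 of 55291 genes, each with a value in all 119 libraries. Levels are given as CPM, the reads of a gene as a share of all counted reads of its library after TMM scaling, which evens out libraries of different composition. The libraries are polyA-enriched RNA-seq of tissue punches from both sexes, taken from the ventral tegmental area (VTA), the amygdala (Amy), the prefrontal cortex (PFC) and both striatal sites, the dorsal one (DMS) and the nucleus accumbens (NAc).

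All mice were C57BL/6J by the labels and 11 weeks old at collection, whereas the study's methods name C57BL/6NCrl mice and a different age. The library titles read DMS where the tissue label reads Dorsolateral striatum. The THC groups received Δ-9-tetrahydrocannabinol at 10 mg/kg by intraperitoneal injection once a day from postnatal day 28 to 48, which makes 21 injections, and the vehicle groups received ethanol, Tween and saline. Both groups then went without injections until behavioral testing began at postnatal day 63, so all animals had been through the behavioral tests before the brains were taken. Each region held 6 libraries for each sex and treatment, except the male VTA vehicle group with 5. By the study's methods all regions were punched from the same brains, so libraries of different regions share mice. The labels do not name the mouse behind a library, so this pairing could not enter the fits. Comparisons between regions therefore treated libraries of the same mouse as independent, and p-values measure the spread between libraries.

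Bdnf encodes brain-derived neurotrophic factor, a secreted ligand whose receptor is the kinase TrkB, encoded by Ntrk2, and Ntrk3 encodes TrkC, the receptor of the related ligand neurotrophin-3. When neurons fire, calcium entry switches on immediate early transcription factors within minutes, and a slower wave of late response genes follows, whose products act at synapses. Vgf encodes a neuropeptide precursor induced by neurotrophins, and Nptx2 a secreted pentraxin that gathers AMPA receptors at excitatory synapses. Homer1 encodes, in its long forms, a postsynaptic scaffold that links group I metabotropic glutamate receptors to inositol trisphosphate receptors.

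By the GENCODE M21 annotation of GRCm38, Bdnf (ENSMUSG00000048482.14) lies on the plus strand at chr2:109674700-109727007, and its 11 annotated transcripts are all coding. These Bdnf transcripts begin at 9 different start sites and share 1 end. Ntrk2 (ENSMUSG00000055254.15) lies at chr13:58806569-59133970 on the plus strand with 10 transcripts, and Ntrk3 (ENSMUSG00000059146.12) at chr7:78175959-78738012 on the minus strand with 20. Vgf (ENSMUSG00000037428.14) at chr5:137026392-137033351 and Nptx2 (ENSMUSG00000059991.7) at chr5:144545902-144557478 share a chromosome and the plus strand. Homer1 (ENSMUSG00000007617.18) lies at chr13:93299635-93405129 on the plus strand with 12 transcripts. The values are 1 per gene, so the short and long forms of Homer1, the truncated and full-length forms of Ntrk2 and the first exons of Bdnf were not separated.

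Many activity-dependent genes carry near their start sites a motif to which CREB binds, either as the short form TGACG, which reads CGTCA when it lies on the opposite strand, or as the full palindrome TGACGTCA. RefSeq promoter windows on GRCm38.p6, each running from 250 bases before a start site to 50 after it, were at hand for 3 of the 6 members, with 7 windows for Bdnf, 1 for Ntrk2 and 2 for Homer1. The short form occurred on either strand in 20.8% of all 32851 such windows and at least 3 times in 1.035% of them. Among the members it occurred in 1 window of Homer1 and 1 window of Bdnf, and the palindrome, present in 1.8% of all windows, in none of them. The 100 bases before these start sites are shown because they hold every match among the members, in capitals. They lie at chr13:93303657-93303756 and chr2:109692336-109692435 on the plus strand, each within an intron of longer transcripts of the same gene and overlapping no annotated exon.
Homer1: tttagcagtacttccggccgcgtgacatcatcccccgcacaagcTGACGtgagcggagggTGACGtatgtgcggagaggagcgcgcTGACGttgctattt
Bdnf: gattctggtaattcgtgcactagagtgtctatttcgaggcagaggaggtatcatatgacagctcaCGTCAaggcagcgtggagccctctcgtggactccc

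The Homer1 window held 3 copies of the short form, which began 56, 40 and 14 bases before the start site, and the Bdnf window held 1 on the opposite strand at 35 bases before it. A match is a run of letters, and no binding was measured here. The values by gene cannot be tied to these start sites.

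Library totals ran from 3090998 to 77042133 counted reads, with all PFC and DMS libraries between 17826631 and 25470245. The shallowest was library FTL_371 (male VTA, vehicle), whose 9 dopaminergic markers summed to 1558 CPM, the lowest among VTA vehicle libraries, which reached 4434 CPM. The lowest sum in female VTA THC libraries was 1237 CPM. The study's methods report removing a male VTA sample as an outlier without naming it, whereas all male VTA libraries were kept here. Xist and Y-linked genes matched the label in 59 of 60 libraries labelled female and 58 of 59 labelled male. Library FTL_344, labelled female Amy THC, had Xist at 0.293 CPM and Y-linked genes summing to 139 CPM, and library FTL_356, labelled male Amy THC, had 489 and 0.371 CPM. In library FTL_285 (female DMS, vehicle), 9 markers of cortical and basolateral projection neurons summed to 305.95 CPM, against a highest value of 39.5 CPM in the male DMS vehicle libraries. Choroid plexus markers summed to over 100 CPM in 6 Amy libraries, namely FTL_335, FTL_337 and FTL_338 of the female vehicle group, FTL_343 and FTL_344 of the female THC group and FTL_356 of the male THC group. Values without these libraries stand beside several member results below, but not beside every estimate that changed.

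The level of all 6 members differed between brain regions, but to very different extents. Bdnf and Nptx2 spanned the widest ranges, Homer1 followed, and Ntrk2, Ntrk3 and Vgf differed far less. Each pair of regions was compared in the 59 vehicle libraries with the edgeR quasi-likelihood test, and a gene was called at a Benjamini-Hochberg adjusted p under 0.05 and a change of at least 0.4 on the log2 scale. Over 17712 genes tested, 49.2% were called between DMS and PFC, 45.2% between NAc and PFC, 37.4% between Amy and PFC and 55% between VTA and PFC. The members called there were 3, 3, 3 and 4 of 6. Between NAc and DMS 30.7% of genes and 3 members were called, between Amy and DMS 43% and 5 members, and between VTA and DMS 57.6% and 5 members. Between Amy and NAc 24.8% of genes and 4 members were called, between VTA and NAc 52.1% and 4 members, and between VTA and Amy 43.4% and 4 members. The members' share of calls was thus of the order of the background, and the sizes of the changes are what follow. PFC and DMS were deposited in 1 table and NAc, Amy and VTA in another, so in the 6 pairs that cross the tables the region and the table cannot be told apart.

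**Figure D1:**
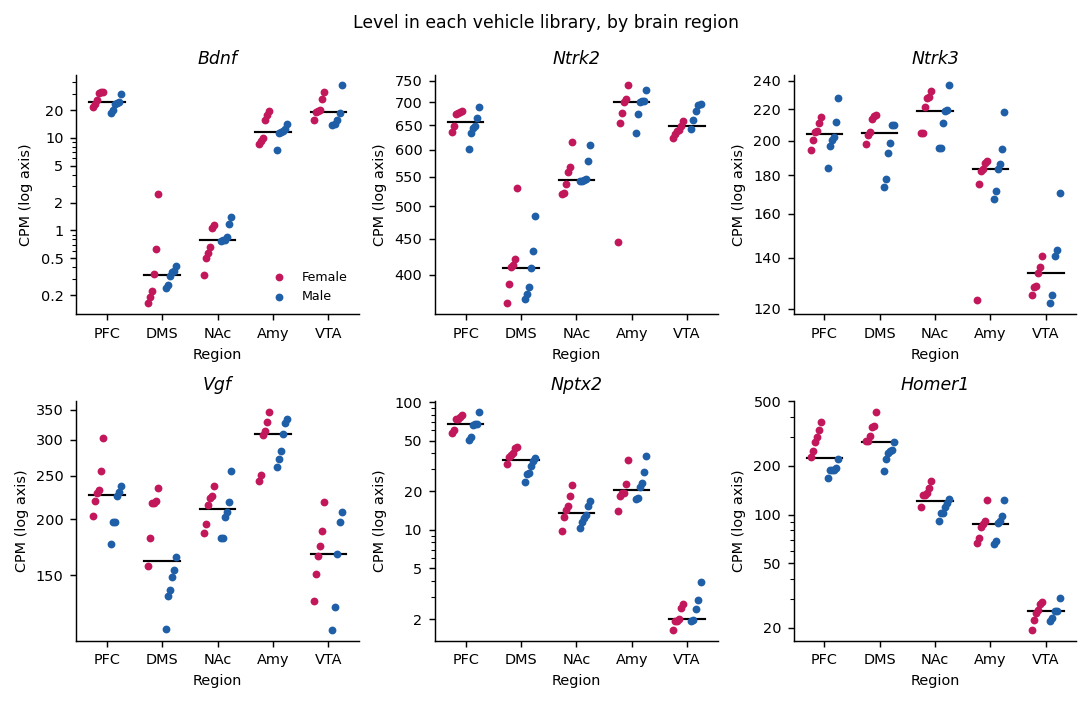
Level of each member in every vehicle library (CPM, log axes), by brain region, with females in red, males in blue and a bar at the median of the region. Bdnf lies near or under 1 CPM in DMS and NAc apart from library FTL_285 at 2.47 CPM, Nptx2 and Homer1 are lowest in VTA, and Ntrk2, Ntrk3 and Vgf stay within a narrow range.

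Bdnf, the ligand, was the member with the sharpest regional pattern. In PFC it ran from 18.4 through a median of 24.2 to 31.6 CPM (25.4 ± 4.47, mean ± SD, n = 12), in VTA from 13.8 through 18.9 to 37.0 CPM (21.1 ± 7.51, n = 11) and in Amy from 7.33 through 11.7 to 19.7 CPM (12.5 ± 3.75, n = 12). In NAc it ran from 0.328 through 0.790 to 1.38 CPM (0.834 ± 0.308, n = 12), which was 10 to 26 counted reads a library. In DMS it ran from 0.163 through 0.331 to 2.47 CPM (0.498 ± 0.635, n = 12), and the lowest library had 3 counted reads. Neither striatal region overlapped with PFC, Amy or VTA. Against PFC, Bdnf was lower by a log2 fold change of -5.56 (SE 0.24) in DMS, -5.00 (SE 0.23) in NAc and -1.05 (SE 0.17) in Amy, all called. Medium spiny neurons of the striatum are known to make little BDNF mRNA and to receive the protein along cortical and midbrain axons.

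The highest DMS value of Bdnf was that of library FTL_285, the one with the raised cortical markers. Without that library, a setting chosen after seeing the data, the difference of DMS from PFC was -6.24. NAc against DMS gave 0.56 (adjusted p = 0.165 by edgeR) with the library and 1.24 (adjusted p = 0.00105) without it, and DESeq2 gave 0.72 with it (adjusted p = 0.0234). VTA against PFC gave -0.32 (adjusted p = 0.0755), -0.42 (adjusted p = 0.0179) without the shallow library FTL_371 and -0.32 (adjusted p = 0.0289) without library FTL_285. The direction of both differences was the same in these fits, and the adjusted p lay on either side of 0.05. In male VTA vehicle libraries Bdnf stood at 15.7, 13.8, 37.0, 14.3 and 18.5 CPM, where 37.0 CPM was library FTL_371. VTA exceeded Amy by 0.72 (SE 0.17), although the 2 regions overlapped.

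Ntrk2, the BDNF receptor, was expressed at high level in every region. Its median was 700 CPM in Amy (445 to 739; 672 ± 77.3, n = 12), 657 CPM in PFC (602 to 688; 656 ± 25.1, n = 12) and 648 CPM in VTA (624 to 695; 656 ± 24.5, n = 11). It was 545 CPM in NAc (520 to 615; 557 ± 31.0, n = 12) and 410 CPM in DMS (364.8 to 531; 416 ± 48.9, n = 12). Amy, PFC and VTA were not told apart, with log2 differences from PFC of 0.01 (95% interval -0.09 to 0.11) in Amy and 0.01 (-0.09 to 0.11) in VTA. DMS was lower than PFC by a log2 fold change of -0.64 (SE 0.05), without overlap, and NAc was above DMS by 0.41 (SE 0.05). Ntrk2 is expressed in neurons and in astrocytes, the latter mainly as the truncated receptor, and tissue RNA does not separate fewer cells of a type from less RNA per cell.

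Ntrk3, the receptor of neurotrophin-3, was lowest in VTA, and Amy lay between VTA and the other 3 regions. Its median was 219 CPM in NAc (195 to 237; 217 ± 14, n = 12), 205 CPM in DMS (174 to 217; 201 ± 13.98, n = 12), 204 CPM in PFC (184 to 228; 205 ± 11.2, n = 12) and 184 CPM in Amy (123 to 218; 180 ± 22.0, n = 12). In VTA it was 134 CPM (122 to 171; 136 ± 13.6, n = 11), below every PFC, DMS and NAc library. VTA differed by -0.58 (SE 0.05) from PFC, -0.58 (SE 0.05) from DMS and -0.68 (SE 0.05) from NAc, all called. The difference from Amy, -0.38 (SE 0.05), fell just short of the 0.4 limit, and it was past it at -0.40 by DESeq2 and at -0.43 without the 6 libraries rich in choroid plexus markers. Amy was lower than PFC, DMS and NAc by -0.21, -0.21 and -0.30 (adjusted p = 0.000342, 0.000358 and 1.15e-06 by edgeR), all under the 0.4 limit and with overlapping libraries. NAc, PFC and DMS did not differ past the adjusted threshold, and DMS against PFC gave -0.00 (95% interval -0.11 to 0.10).

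Vgf, the neuropeptide precursor, was highest in Amy. There it ran from 243 through 308.5 to 346.5 CPM (298.3 ± 34.8, n = 12), while PFC had a median of 227 CPM (176 to 303.6; 225 ± 32.8, n = 12) and NAc one of 211 CPM (182 to 256; 211 ± 22.9, n = 12). VTA had a median of 168 CPM (114 to 218; 168 ± 33.9, n = 11) and DMS one of 161 CPM (114 to 235; 174 ± 39.6, n = 12). Every Amy library lay above every DMS and VTA library. Amy exceeded DMS by 0.75 (SE 0.09) and NAc by 0.47 (SE 0.09), and VTA against Amy gave -0.81 (SE 0.09). Amy against PFC gave 0.39 (SE 0.09, adjusted p = 0.000131), short of the 0.4 limit, and 0.41 without the libraries rich in choroid plexus markers. VTA against PFC was called at -0.42, and at -0.39 without library FTL_371 it fell short of the limit. VTA and DMS did not differ past the threshold (-0.06, 95% interval -0.24 to 0.12).

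Nptx2, the synaptic pentraxin, fell stepwise over all 5 regions. It ran from 50.9 through 67.3 to 84.2 CPM in PFC (67.7 ± 10.6, n = 12), from 23.9 through 35.5 to 44.6 CPM in DMS (34.9 ± 6.52, n = 12) and from 14.1 through 20.7 to 38.1 CPM in Amy (23.01 ± 7.28, n = 12). NAc had 9.82 through 13.7 to 22.4 CPM (14.4 ± 3.58, n = 12) and VTA 1.66 through 2.02 to 3.88 CPM (2.33 ± 0.627, n = 11). Neighbours in this order overlapped only for DMS with Amy and Amy with NAc. All 10 pairs of regions were called for Nptx2, from VTA against PFC at -4.93 (SE 0.16) to Amy against DMS at -0.63 (SE 0.12).

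Homer1, the glutamate receptor scaffold, was highest in DMS and PFC. In DMS it ran from 184 through 281.9 to 430 CPM (284.8 ± 66.6, n = 12) and in PFC from 168 through 223 to 371.6 CPM (242 ± 65.0, n = 12). It ran from 90.6 through 121 to 162 CPM in NAc (122 ± 20.4, n = 12), from 65.8 through 87.7 to 123 CPM in Amy (88.3 ± 19.4, n = 12) and from 19.5 through 25.4 to 30.7 CPM in VTA (25.1 ± 3.28, n = 11). VTA lay below every library of the other 4 regions, and DMS and PFC overlapped (DMS against PFC 0.26, SE 0.10, adjusted p = 0.0169, under the 0.4 limit). VTA was lower than PFC by a log2 fold change of -3.27 (SE 0.12) and lower than DMS by one of -3.53 (SE 0.12). Amy against NAc gave -0.49 (SE 0.10), and -0.37, under the limit, without the libraries rich in choroid plexus markers.

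Levels of different genes were set side by side only after division by the length of their annotated exons, as CPM per kilobase. On that scale Vgf was the most abundant member in every region, from a mean of 56.3 in VTA to 100 in Amy, and Ntrk2 ran from 21.5 in DMS to 34.8 in Amy. Homer1 ran from 2.10 in VTA to 23.8 in DMS, Nptx2 from 0.919 in VTA to 26.7 in PFC and Ntrk3 from 4.50 in VTA to 7.18 in NAc. Bdnf was between 0.0801 in DMS and 4.08 in PFC. In VTA the ligand Bdnf therefore had a higher mean per kilobase, 3.39, than Nptx2 or Homer1. The per-kilobase levels use all annotated exons, whether or not a region uses them.

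Genes that work with the members also differed between regions, beside a share of all genes called of 55% between VTA and PFC and 49.2% between DMS and PFC. Of 15 other neurotrophin genes, 14 were tested, and between VTA and PFC 7 were higher and 3 lower, with a median log2 change of 0.323 against 0.03 over all genes. Ntf3, the ligand of TrkC, had a mean of 5.03 CPM in VTA, against 0.815 in PFC, 0.673 in Amy, 0.345 in NAc and 0.141 CPM in DMS (VTA against DMS 5.11, called). Ntf3 was thus highest in the region where its receptor gene Ntrk3 was lowest. Of 10 other late response and secretory genes, 2 were higher and 6 lower in DMS than in PFC, with a median of -1.75 against 0.059 over all genes. Nptxr, the pentraxin receptor, had means of 954 CPM in PFC, 670 in Amy, 183 in VTA, 139 in NAc and 91.0 CPM in DMS, so its order over the regions was not that of Nptx2. Of 9 Homer partners, 2 were higher and 7 lower in VTA than in PFC, with a median of -1.30. Grm5, the metabotropic receptor that Homer proteins bind, and Itpr1, the receptor on calcium stores, were both lower in VTA than in DMS (-2.79 and -3.44), as Homer1 was.

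The question of the study was what adolescent THC left behind in each region and sex, and for these genes the data held 1 called change. Of the 60 combinations of a member with a region and sex, 58 passed the filter on low counts and were tested, 9 had an unadjusted p under 0.05 and 1 was called by edgeR. DESeq2 called 1 and had 12 with an unadjusted p under 0.05. Among all genes, 3724 of 17003 in female Amy and 2653 of 15932 in male NAc had an unadjusted edgeR p under 0.05. In each of these groups 3 members did. In female PFC, DMS and VTA, with 1 member each, the counts of all genes were 928 of 15904, 1406 of 15800 and 1421 of 15747. The share of all genes called was 1.57% in female Amy, where the 1 member call was, and 0.0127% in female DMS, with no member called. It was 0% in female PFC, male PFC, male DMS, female NAc, male NAc, male Amy, female VTA and male VTA. Bdnf was not tested in DMS, where the vehicle and THC libraries had as few as 3 and 1 counted reads.

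**Figure D2:**
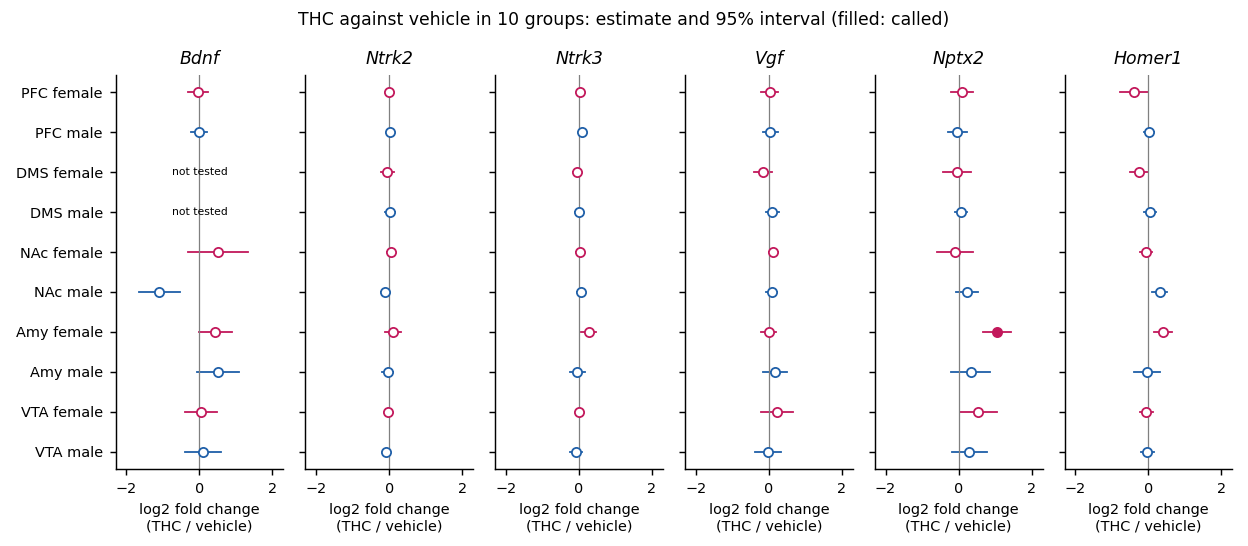
Log2 fold change of THC against vehicle (edgeR, point) with its 95% interval (line) for each member in the 10 groups of region and sex, females in red and males in blue. Nptx2 in female Amy, at 1.05, is the only filled point, that is, the only called change, and Bdnf in male NAc, at -1.10, lies at the other end.

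In female Amy, Nptx2 rose after THC. Vehicle libraries stood at 14.1, 18.5, 19.4, 19.6, 23.1 and 34.9 CPM (21.6 ± 7.15, n = 6) and THC libraries at 34.6, 38.2, 42.4, 47.3, 49.96 and 54.1 CPM (44.4 ± 7.38, n = 6). The groups overlapped by 1 vehicle library, at 34.9 CPM, which lay above the lowest THC library and below the other 5. The log2 fold change was 1.05 (SE 0.17, 95% interval 0.67 to 1.42, edgeR adjusted p = 0.0127), the rank of 47 among 17003 genes tested. Leaving out each library in turn gave 0.96 to 1.21 with adjusted p from 0.00226 to 0.0418, so the call was kept in all 12 fits. Without library FTL_344, which went against its sex label, it was 1.09 (adjusted p = 0.0233). Without the 5 female libraries rich in choroid plexus markers, which left 3 vehicle and 4 THC libraries, the change was the same size at 1.05 (SE 0.24) but no longer called (adjusted p = 0.0718). This last setting was chosen after seeing the data.

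**Figure D3:**
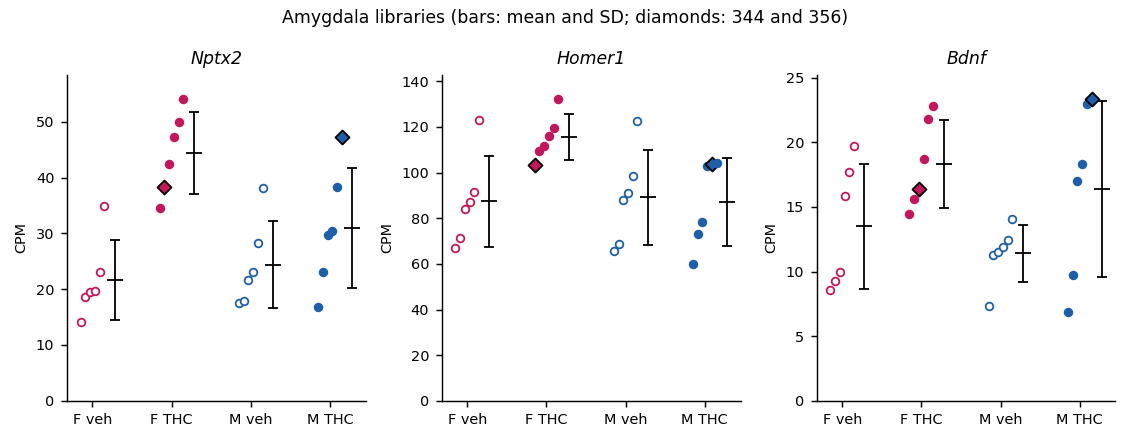
Level of Nptx2, Homer1 and Bdnf in every Amy library (CPM, linear axes from 0), by sex and treatment, open for vehicle and filled for THC, with the mean and SD beside each group. Diamonds mark libraries FTL_344 and FTL_356, whose sex-linked genes went against the label. In females 5 of 6 THC libraries lie above all vehicle libraries for Nptx2, and for males the groups overlap in all 3 genes.

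The other 5 members in female Amy did not pass the threshold, and all 6 estimates were at or above 0, with a median of 0.333 against -0.006 over all genes tested. Homer1 ran from 67.1 through 85.7 to 123 CPM with vehicle (87.4 ± 19.9, n = 6) and from 103 through 114 to 132 CPM with THC (116 ± 10.0, n = 6). Its 5 lower vehicle libraries lay below every THC library, with a log2 fold change of 0.40 (SE 0.12, edgeR adjusted p = 0.0889). DESeq2 gave the same change of 0.40 with an adjusted p of 0.0309, short of the size limit before rounding. Of the fits that left out 1 library, only the one without vehicle library FTL_336, at 123 CPM, called Homer1 (0.50, edgeR adjusted p = 0.0181). Ntrk3 ran from 123 through 183 to 188 CPM with vehicle (173 ± 24.8, n = 6) and from 189 through 206 to 235 CPM with THC (210 ± 17.9, n = 6). These Ntrk3 groups did not overlap, with the nearest libraries at 187.9 and 189.0 CPM, and the change was small, 0.27 (SE 0.10, edgeR adjusted p = 0.127). The share of all genes whose groups did not overlap was not counted. Bdnf was at 13.5 ± 4.83 CPM with vehicle and 18.3 ± 3.42 CPM with THC (n = 6 each; 0.44, edgeR adjusted p = 0.235), and Ntrk2 and Vgf had log2 fold changes of 0.10 and 0.00 (edgeR adjusted p = 0.565 and 0.997). Without the 5 female libraries rich in choroid plexus markers the estimate was 0.29 for Homer1, 0.20 for Ntrk3 and 0.89 for Bdnf (edgeR adjusted p = 0.274, 0.115 and 0.0917).

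Genes linked to Nptx2 and Homer1 were also called in female Amy, where 1.57% of all genes were called and the median over all genes was -0.006. Nptxr, the receptor that holds neuronal pentraxins at the synapse, was at 649 ± 99.7 CPM with vehicle and 1049 ± 154 CPM with THC (n = 6 each; 0.68, edgeR adjusted p = 0.0121). Rasgrp1, a calcium-responsive activator of Ras, went from 249 ± 64.9 to 446 ± 54.1 CPM (0.83, edgeR adjusted p = 0.0207). These were the 2 of 10 other late response genes called, with none called lower and a median of 0.24. Scg2 of the same list went down in mean, from 711 ± 74.4 to 548 ± 62.6 CPM (n = 6 each), and was not called. Of 9 Homer partners 2 were called higher, namely Dlgap1, a scaffold of the postsynaptic density (0.43, edgeR adjusted p = 0.0244), and Itpr1 (0.54, edgeR adjusted p = 0.0462), with a list median of 0.325. Of 14 other neurotrophin genes tested 1 was called, Sort1, the sortilin receptor that sorts BDNF within neurons (0.41), with a median of 0.043. Of 13 immediate early genes 1 was called, Egr3 (0.51, edgeR adjusted p = 0.027), and 12 estimates were positive with a median of 0.179. Fos went from 9.90 ± 2.94 to 6.49 ± 2.59 CPM (n = 6 each) and was not called. Values of these list genes with single libraries left out are not given. Vehicle library FTL_338 was lowest of its group for the summed Homer partners (1015 CPM, group median 1678) and other neurotrophin genes (776 CPM, median 1193).

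Markers of where the tissue came from moved with the same groups. The summed level of 9 markers of cortical and basolateral projection neurons was 570 to 836 CPM in female vehicle libraries and 891 to 1239 CPM in female THC libraries, without overlap. All 9 were positive and 3 were called, namely Tbr1 (0.94), Neurod6 (0.83) and Slc17a7 (0.76), and the list median was 0.611. Markers of medium spiny neurons summed to 287.7 to 627 CPM and 580 to 938 CPM, with 9 of 9 positive, none called by edgeR and a median of 0.671. Markers of hypothalamus and medial amygdala summed to 19.96 to 51.8 CPM and 12.3 to 26.2 CPM, with 0 of 6 tested positive, none called and a median of -1.23. Oligodendrocyte markers had 0 of 9 positive and a median of -0.466, and choroid plexus markers ran from 17.4 to 1147 CPM with vehicle and from 18.1 to 3566 CPM with THC. The part of these markers in the change of Nptx2 was not tested by a fit.

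In the 24 Amy libraries, after the group means were taken off, the level of Nptx2 followed the cortical marker sum (r = 0.648, permutation p = 0.00413, adjusted over 18 tests 0.0186; rho = 0.663, permutation p = 0.00176, adjusted 0.0239). Without the 2 libraries farthest from the median marker sum r was 0.772, and without libraries FTL_344 and FTL_356 it was 0.565 (adjusted p = 0.0494). Bdnf followed it too (r = 0.698, permutation p = 0.00116, adjusted 0.0104; rho = 0.549, permutation p = 0.0123, adjusted 0.0443; r = 0.514 without the 2 farthest). Without libraries FTL_344 and FTL_356 this r was 0.661 (adjusted permutation p = 0.018), while the adjusted p of rho rose over 0.05, to 0.079. Homer1 ran against the hypothalamic and medial amygdala sum (r = -0.671, permutation p = 0.002, adjusted 0.012; rho = -0.649, permutation p = 0.0041, adjusted 0.0246; r = -0.568 without the 2 farthest). With the cortical sum Homer1 gave r = 0.521 (adjusted permutation p = 0.0678) and rho = 0.601 (adjusted permutation p = 0.0375). Nptx2 with the hypothalamic and medial amygdala sum gave r = -0.432 (adjusted permutation p = 0.138). Without libraries FTL_344 and FTL_356 this r was -0.612 (adjusted permutation p = 0.03955). Bdnf ran against the astrocyte sum (r = -0.683, permutation p = 0.00075, adjusted 0.0104; rho = -0.681, permutation p = 0.00265, adjusted 0.0239; r = -0.655 without the 2 farthest).

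Male Amy showed no called member. Nptx2 ran from 17.5 through 22.4 to 38.1 CPM with vehicle (24.4 ± 7.79, n = 6) and from 16.8 through 30.1 to 47.2 CPM with THC (30.9 ± 10.8, n = 6), a log2 fold change of 0.33 (95% interval -0.20 to 0.86, edgeR adjusted p = 1.00). The highest THC value was that of library FTL_356, whose sex-linked genes went against the label. The log2 fold change of Bdnf was 0.51 (95% interval -0.06 to 1.076) and that of Homer1 -0.04 (-0.40 to 0.33), with overlapping groups. Without library FTL_356, which was also the 1 male library rich in choroid plexus markers, the estimate was 0.17 for Nptx2, 0.38 for Bdnf and -0.09 for Homer1 (edgeR adjusted p = 0.9985 for each). The members' median with all libraries was 0.062 against 0.005 over all genes.

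Whether the sexes differed was tested with the interaction of sex and treatment. The share of all genes called for it was 0.0059% in Amy and 0% in PFC, DMS, NAc and VTA. No member was called among 29 tested, 7 had an unadjusted p under 0.05, and DESeq2 called none with 7 under 0.05. Among all genes, 2675 of 16956 in Amy and 1845 of 16773 in NAc had an unadjusted edgeR p under 0.05, beside 2 and 3 members. In PFC and DMS, with 1 member each, the counts were 965 of 16451 and 980 of 16605. In Amy the change of Nptx2 in males minus that in females was -0.72 (SE 0.32, edgeR adjusted p = 0.291), and it was -0.92 (adjusted p = 0.199) without libraries FTL_344 and FTL_356. For Ntrk3 it was -0.32 (adjusted p = 0.293) and for Homer1 -0.43 (adjusted p = 0.327). A difference between the sexes was therefore not shown for any member. With both sexes together the share of all genes called was 0% in PFC, DMS, NAc, Amy and VTA. No member was called among 29 tested, 5 had an unadjusted p under 0.05 by edgeR, and DESeq2 called none with 6 under 0.05. Among all genes, 1174 of 16653 in Amy and 1679 of 16540 in VTA had an unadjusted edgeR p under 0.05, beside 2 members each. In NAc, with 1 member, the count was 1700 of 16494. In Amy, the estimate was 0.70 for Nptx2 (SE 0.17, edgeR adjusted p = 0.662) and for Bdnf 0.47 (SE 0.17, edgeR adjusted p = 0.677). Without the 6 Amy libraries rich in choroid plexus markers these were 0.51 and 0.57 (edgeR adjusted p = 0.998 for both).

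In male NAc, Bdnf had the largest estimate downward, without passing the threshold. Vehicle libraries ran from 0.765 through 0.816 to 1.38 CPM (0.956 ± 0.257, n = 6) and THC libraries from 0.264 through 0.414 to 0.645 CPM (0.433 ± 0.139, n = 6). The groups did not overlap, but these levels were 10 to 26 and 5 to 27 counted reads a library. How many of all genes in male NAc had groups without overlap was not counted. The log2 fold change was -1.10 (SE 0.26, 95% interval -1.65 to -0.54, edgeR adjusted p = 0.21), and leaving out each library in turn gave -1.30 to -0.96 with adjusted p from 0.104 to 0.413. In female NAc the estimate was 0.50 (95% interval -0.32 to 1.33), from 0.711 ± 0.326 to 0.993 ± 0.549 CPM (n = 6 each). The interaction was -1.60 (SE 0.49, edgeR adjusted p = 0.384).

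Also in male NAc, Homer1 was at 108 ± 12.4 CPM with vehicle and 134 ± 19.1 CPM with THC (n = 6 each; 0.30, SE 0.10, edgeR adjusted p = 0.21). Of the 6 THC libraries 4 lay above every vehicle library. The BDNF receptor Ntrk2 was at 561 ± 28.2 and 516 ± 19.4 CPM (-0.12, SE 0.04, edgeR adjusted p = 0.216), with 5 THC libraries below every vehicle library. The interactions were 0.38 for Homer1 and -0.16 for Ntrk2 (edgeR adjusted p = 0.385 for both). Beside these values, the cortical marker sum ran from 75.0 to 164 CPM with vehicle and from 57.1 to 93.2 CPM with THC, and the medium spiny neuron sum from 2400 to 3522 CPM and from 3062 to 4972 CPM. Their part in the member values was not tested.

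**Figure D4:**
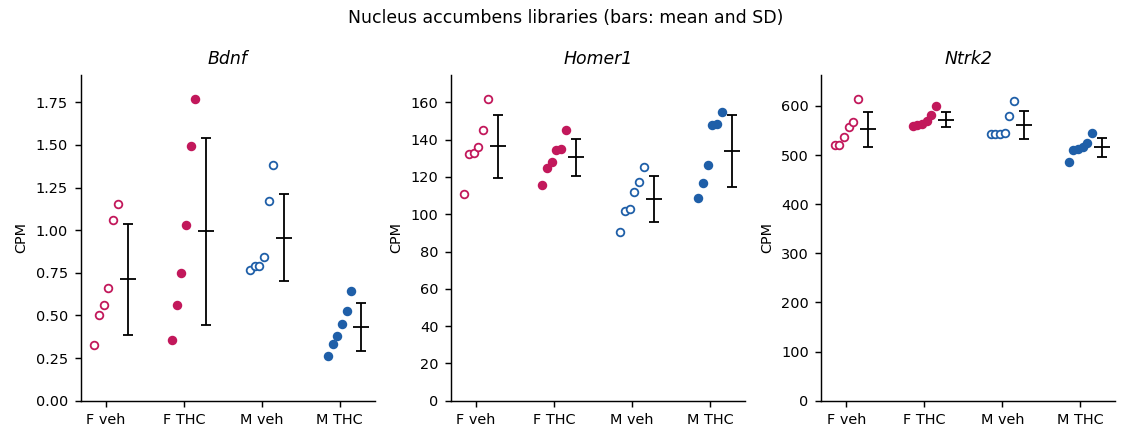
Level of Bdnf, Homer1 and Ntrk2 in every NAc library (CPM, linear axes from 0), by sex and treatment, open for vehicle and filled for THC, with the mean and SD beside each group. In males all 6 THC libraries lie below all 6 vehicle libraries for Bdnf, at 0.264 to 0.645 against 0.765 to 1.38 CPM, and in females the groups overlap.

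In PFC and DMS the largest estimates were those of Homer1 in females, and neither was called. In female PFC, Homer1 ran from 226 through 289.6 to 371.6 CPM with vehicle (291.9 ± 54.3, n = 6) and from 177 through 198 to 300.9 CPM with THC (222 ± 52.4, n = 6), a log2 fold change of -0.39 (SE 0.17, edgeR adjusted p = 0.855). In female DMS it ran from 282.9 through 325.4 to 430 CPM and from 228 through 271.9 to 336.9 CPM, a change of -0.26 (SE 0.11, edgeR adjusted p = 0.531), and -0.30 without library FTL_285. The groups overlapped in both regions, with 4 and 3 THC libraries below every vehicle library. In males the estimate for Homer1 was 0.03 in PFC and 0.05 in DMS. In DMS, Bdnf ran from 0.163 to 2.47 CPM in female vehicle, 0.196 to 0.576 in female THC, 0.238 to 0.415 in male vehicle and 0.0549 to 0.366 CPM in male THC libraries, and was too low to test.

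In VTA no member was called. Nptx2 in females ran from 1.66 through 1.98 to 2.63 CPM with vehicle (2.11 ± 0.368, n = 6) and from 1.54 through 2.85 to 5.12 CPM with THC (3.09 ± 1.27, n = 6), a log2 fold change of 0.54 (SE 0.24, edgeR adjusted p = 0.531). In males its vehicle libraries stood at 2.40, 1.96, 3.88, 2.83 and 1.92 CPM, and THC libraries ran from 1.82 through 2.72 to 4.23 CPM (0.29, edgeR adjusted p = 0.849). The groups overlapped in both sexes, and over both sexes the change was 0.41 (SE 0.17, edgeR adjusted p = 0.441). The estimates of the other members lay between -0.09 and 0.22 in VTA. Without the shallow library FTL_371 the estimate in males was 0.39 for Nptx2 and went from 0.10 to 0.32 for Bdnf (edgeR adjusted p = 0.62 and 0.563).

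Males and females differed in late response genes of DMS, under the size limit for a call. The share of all genes called between the sexes was 0.24% in PFC, 2.64% in DMS, 0.243% in NAc, 0.012% in Amy and 0.109% in VTA, and no member was called by edgeR or DESeq2. The Amy fit kept libraries FTL_344 and FTL_356 under their labelled sex, which their sex-linked genes went against. It called 2 genes, with 0 higher in males, so the Amy share does not measure the sex difference there. Of 29 member comparisons 7 had an unadjusted p under 0.05 by edgeR and 9 by DESeq2, and 4 an adjusted p under 0.05 with either tool. Among all genes, 4554 of 16366 in DMS and 2653 of 16230 in PFC had an unadjusted edgeR p under 0.05. The members under it were 3 of 5 tested in DMS and 4 of 6 in PFC. The share of all genes with an adjusted p under 0.05, whatever the size of the change, is not given here. In DMS, males were lower in Vgf by a log2 difference of -0.38 (SE 0.08, edgeR adjusted p = 0.00515), in Homer1 by -0.33 (SE 0.08, adjusted p = 0.013) and in Nptx2 by -0.32 (SE 0.10, adjusted p = 0.043). Without library FTL_285 these were -0.37, -0.34 and -0.32. The vehicle values of Vgf in DMS ran from 157 through 217 to 235 CPM in females and from 114 through 144 to 165 CPM in males, so 1 female library lay within the male range. In PFC, Homer1 was lower in males by -0.40 (SE 0.10, edgeR adjusted p = 0.0477). These estimates average over treatment. Mean Homer1 with vehicle and THC was 291.9 and 222.4 CPM in female PFC, and 191.5 and 194.7 CPM in male PFC. In DMS it was 333.2 and 277.4 CPM in females, and 236.4 and 244.2 CPM in males. The interaction estimate for Homer1 was 0.42 in PFC and 0.31 in DMS, neither called. With no filter on low counts, so that more genes were tested, the adjusted p was 0.0835 for Nptx2 in DMS and 0.0804 for Homer1 in PFC. Of the other late response genes 2 of 10 were called lower in male DMS, with a median of -0.215, and of 13 immediate early genes 1 was called lower, with a median of -0.28, against 0.001 over all genes.

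Within a region the members also varied from library to library, and Nptx2 and Homer1 varied together. Log2 CPM was taken as the deviation from the mean of each group of sex and treatment, and 15 pairs in 5 regions gave 75 tests, each with 100000 permutations within the groups. Of these, 7 had an adjusted p under 0.05, all positive, with 4 in PFC, 2 in Amy, 1 in NAc and none in DMS or VTA. For Nptx2 with Homer1, r was 0.887 in Amy (rho = 0.866; permutation p of r = 1e-05, the smallest the permutations can give, adjusted 0.00075). It was 0.668 in PFC (rho = 0.675, permutation p of r = 0.00129, adjusted 0.0164) and 0.652 in NAc (rho = 0.583, adjusted permutation p of r = 0.0128). Without the 2 libraries farthest from the median of Nptx2, r was 0.832, 0.665 and 0.724. The 2 receptor genes Ntrk2 and Ntrk3 went together in Amy (r = 0.844, rho = 0.766, permutation p of r = 7e-05, adjusted 0.00263; 0.67 without the 2 farthest), where library FTL_338 was the lowest for both.

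In PFC, beside Nptx2 with Homer1, 3 of the other 14 pairs passed the threshold. Bdnf with Nptx2 gave r = 0.737 (rho = 0.709, permutation p of r = 0.0004, adjusted 0.01; 0.638 without the 2 farthest), Ntrk2 with Homer1 r = 0.665 (rho = 0.637, adjusted permutation p of r = 0.0164) and Vgf with Nptx2 r = 0.588 (rho = 0.577, adjusted permutation p of r = 0.0348). Scaled by library size alone, the last 2 gave 0.611 and 0.564 (adjusted permutation p = 0.0723 for both). The median r over the 15 pairs was 0.475 in PFC, 0.201 in Amy, 0.106 in DMS, 0.023 in VTA and -0.022 in NAc. These libraries share a dissection, a depth and a composition, and no more than co-variation was measured.

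**Figure D5:**
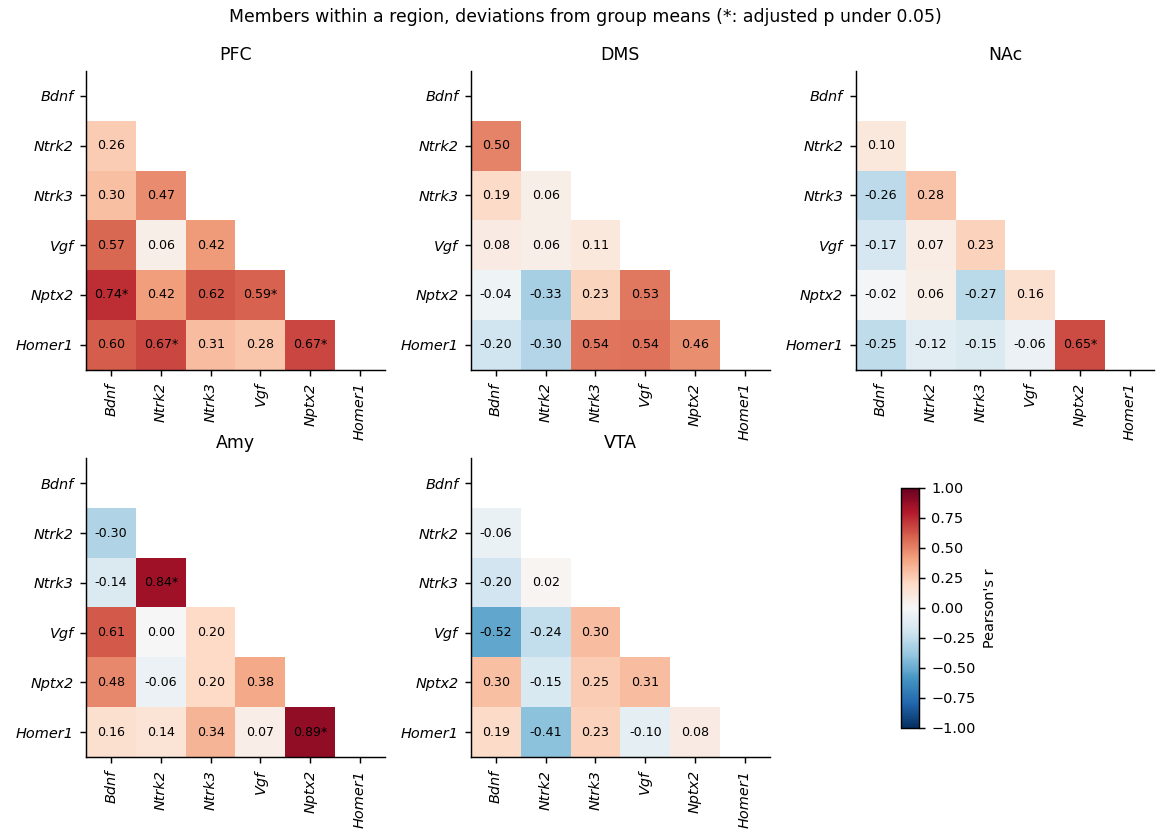
Pearson's r of each pair of members within each region, from deviations of log2 CPM from the means of the 4 sex and treatment groups (24 libraries a region, 23 in VTA), with a star at an adjusted permutation p under 0.05. Red is positive and blue negative, and the cell of Nptx2 with Homer1 is starred in PFC, NAc and Amy but has 0.08 in VTA.

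The genes whose pattern was most like that of each member over all 119 libraries were found among 15483 genes by r of log2 CPM, given as a description that the 5 regions dominate. For Bdnf they were Cdk14 (0.983), Nrn1 (0.977) and Pcsk1 (0.973), and for Nptx2 Acap3 (0.976), Mmp17 (0.974) and Mtpn (0.968). For Homer1 they were Atp2b1 (0.977), Tacc1 (0.976) and Trpc1 (0.976), and for Vgf Syn2 (0.800), Kctd10 (0.797) and Camk1g (0.797). Ntrk2 was nearest to Farp1 (0.957), Cacna1g (0.953) and Copa (0.945), and Ntrk3 had Gatad2b (0.950) and Ncoa1 (0.947) among its nearest. With the means of the 20 groups of region, sex and treatment taken off, Bdnf was nearest to Nrn1 (0.683), Stx1a (0.641) and Adcyap1 (0.630), Nptx2 to Zfp365 (0.695), Cx3cl1 (0.686) and St3gal5 (0.667), and Homer1 to Rock2 (0.738), Prkcb (0.708) and Lrrk2 (0.685). Vgf was then nearest to Ncs1 (0.685), Nckipsd (0.662) and Eef1a2 (0.620), Ntrk2 to Soga1 (0.773), Tnr (0.770) and Acaca (0.768), and Ntrk3 to Map1b (0.812), Prrc2c (0.810) and Ylpm1 (0.810). Nrn1, itself a secreted activity-induced gene, was the only gene among the 3 nearest to Bdnf on both scales.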

How the data were processed

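Total counts per gene were measured in polyA-enriched libraries. Per the labels, reads were trimmed with cutadapt 2.9, aligned to mm10 with STAR 2.7.3a and quantified with RSEM 1.3.1, and the authors deposited expected counts per gene in 2 tables, 1 for PFC and DMS and 1 for NAc, Amy and VTA. The annotation release was not given in the sources used here. Of the deposited values, 4.75% and 5% were not whole and were rounded to whole numbers. RNA shared by overlapping genes cannot be separated in such counts.

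Genes were filtered with filterByExpr, scaled by TMM and tested with the edgeR 4.0.16 quasi-likelihood test (R 4.3.3, limma 3.58.1), with sex or treatment as a covariate where both entered. The limits for a call, an adjusted p of 0.05 and a log2 change of 0.4 in size, were those the study used with DESeq2, which was run as an alternative (1.42.0). Levels are CPM, with a prior count of 2 for log2 CPM. Correlations used Python 3.11.15, numpy 2.4.6 and scipy 1.17.1. On simulated counts for female Amy with 200 genes changed at least 2-fold, edgeR recovered 189, with 8 other calls. For the interaction of sex and treatment in Amy, it recovered 66.7% of the genes changed 2-fold. Recovery of genes changed less than 2-fold was not tested. The simulated counts had the same variability for every gene and no differences in tissue composition or sex label between libraries. Their recovery therefore does not carry over to the real libraries. Members and gene lists were chosen with earlier results of these data known. Named beyond the members were genes of the lists called in a comparison, at most 3 a list by p, and the 3 nearest in pattern. Ntf3 levels, and Nptxr levels in all regions, follow from that rule. Scg2 and Fos levels in female Amy do not, and are given because their means fell while their list medians were positive. Some genes the rule names are not reported here. Alternatives were other size factors, no filter on low counts, DESeq2, separate tables and leaving out libraries.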

Additional observations from a re-analysis of the deposited data

Results flagged for a closer look

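In 8 of the 120 combinations of a member with a group of 5 or 6 libraries, the highest or lowest library lay far from the rest by Dixon's criterion, where chance gives about 1 in 20, that is, 6. In female DMS vehicle libraries, Bdnf was 2.47 CPM in library FTL_285 against 0.163 to 0.636 in the rest, and Ntrk2 was 531 CPM against 364.8 to 422. In female DMS THC libraries, Bdnf was 0.576 CPM in library FTL_293 against 0.196 to 0.294, and Nptx2 was 63.0 CPM in library FTL_296 against 28.2 to 35.3. In female Amy vehicle libraries, library FTL_338 was lowest for both neurotrophin receptors, with Ntrk2 at 445 CPM against 654 to 739 and Ntrk3 at 123 CPM against 175 to 188. That library was also lowest of its group for the summed other neurotrophin genes (776 CPM, group median 1193), Homer partners (1015, median 1678) and astrocyte markers (2568, median 3356). Its sum of other late response genes, 2122 CPM, lay near the group median of 2126. Bdnf was 37.0 CPM in library FTL_371 of male VTA vehicle against 13.8 to 18.5, and Vgf was 531 CPM in library FTL_356, labelled male Amy THC, with the lowest at 244 CPM and a gap to the next of 0.694 of the range of the group.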

How the results depend on the processing

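The counts of members called stayed within 1.5 times of those reported in all but 2 of the fits tried. The exceptions were both in female Amy, where 1 member was called. Leaving out each library in turn gave 1 to 2 calls, with 2 without vehicle library FTL_336, when Homer1 was added. Without the Amy libraries rich in choroid plexus markers, a setting chosen after seeing the data, the count was 0, with fewer libraries in the fit. Single values were followed only for members called in a fit or with an unadjusted p under 0.05, and for pairs past the threshold. Of 678 such values under the alternatives, 662 kept their direction and side of the threshold, 10 came past it, 6 fell short and none reversed. This choice favours values that keep their direction, so the absence of reversals does not extend to the member values left out. The pairs of members past the threshold numbered 7, against 5 with library size alone and 10 without libraries FTL_344 and FTL_356. No paired analysis was possible because the library numbers are unique and the labels do not name the mouse. Depth limits Bdnf in NAc and DMS, where library FTL_285 of DMS held 60 counted reads of it and no other library more than 31. Intervals rest on 5 or 6 libraries a group, and the expected counts do not separate transcript forms.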
